A study of Mus musculus with 5 samples.

Results

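Expression of 38 genes of sterol and fatty acid synthesis, their regulators and sterol efflux, transport and storage was compared between G9C8 clone cells and NOD.G9C8 transgenic cells. The genes were taken by name as 18 sterol synthesis genes, 5 regulators of sterol regulatory element binding proteins (SREBPs), 9 fatty acid synthesis genes and 6 genes of efflux, transport and storage, out of 18193 genes with a probe set annotated to 1 symbol. Each gene was read from its brightest such probe set by mean signal over the 5 arrays. Acat2, Nr1h2 and Soat1 had none, so 35 genes were measured here. All 35 passed the filter on dim probe sets, a mean signal of at least 88.2, and stood among 12446 genes tested. Mvk, the mevalonate kinase gene, passed only through clone arrays 1 and 3.

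G9C8 is a CD8 T cell clone kept in culture, and 3 separately frozen vials of this 1 clone gave 3 arrays. The other group was spleen cells of 2 NOD.G9C8 transgenic mice on the NOD/LtJ background, aged 4 to 8 weeks, with 1 array each. The labels name neither the strain of the clone, nor the construct that drives the transgene, nor any sort of the cells before RNA extraction. Both groups had 3 days of stimulation with insulin B peptide (10 µg/ml) followed by 2 days of rest in IL2 (5 IU/ml), and unstimulated cells were not part of the comparison.

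Cells make cholesterol from acetyl-CoA through mevalonate, farnesyl diphosphate, squalene and lanosterol. SREBPs are made as membrane precursors that SCAP escorts to the Golgi for cleavage when sterols are low, whereas INSIG proteins hold SCAP in the endoplasmic reticulum when sterols are high; the cleaved SREBPs switch on sterol and fatty acid synthesis genes. The liver X receptors (LXRs) sense oxysterols and switch on efflux genes. Activated T cells are known to turn on lipid synthesis for membrane growth.

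All called genes of sterol and fatty acid synthesis were higher in clone, while the efflux and transport genes split. At an adjusted p under 0.05 (limma, Benjamini-Hochberg over all genes tested), 18 of the 35 genes (51.4%) were higher in clone and 4 (11.4%) lower, which left 13 without a call. Over all genes tested, 43.8% were called, 22.0% higher and 21.7% lower. The groups did not overlap for 25 of the 35 genes (71.4%), with clone above in 19 and below in 6, against 64.5% of all genes tested, 31.9% above and 32.6% below. By class, 10 of 17 sterol synthesis genes and 5 of 9 fatty acid synthesis genes were higher and 0 of either class lower. Of the 5 SREBP regulators 1 was higher and 2 lower, and of the 4 genes of efflux, transport and storage 2 were higher and 2 lower. Differences are given as clone minus transgenic on the log2(signal + 20) scale, where 1 is a 2-fold difference. Their medians were 0.66 for sterol synthesis (0.64 without Mvk) and 0.55 for fatty acid synthesis. For the regulators the median was -0.12 and for efflux, transport and storage -0.39, beside -0.01 over all genes tested. The spread within each class was wide, from -0.21 to 1.37 in sterol synthesis, from -0.12 to 1.49 in fatty acid synthesis and from -1.26 to 0.47 in efflux, transport and storage.

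**Figure D1:**
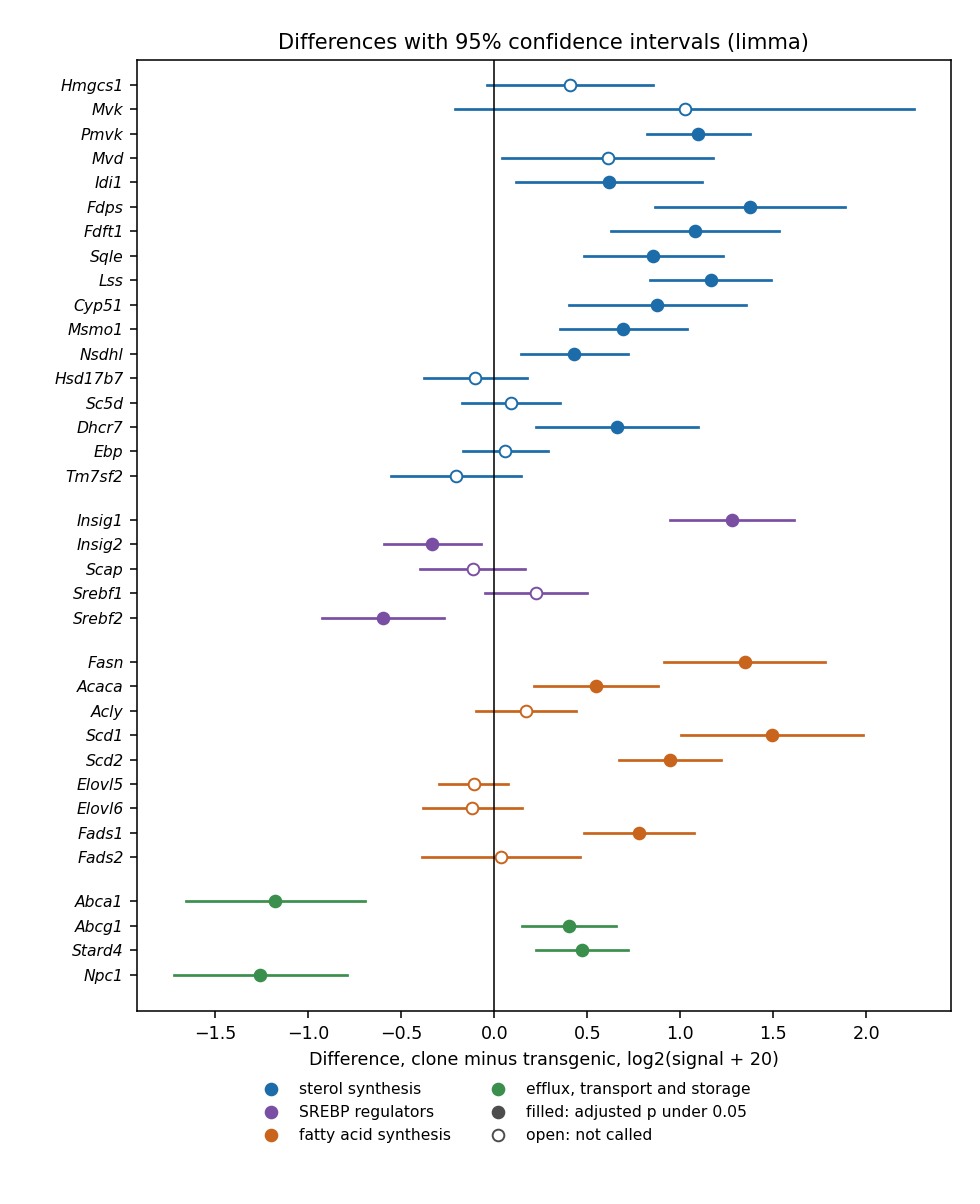
Difference of each of the 35 measured genes, clone minus transgenic on the log2(signal + 20) scale (x axis), with its 95% confidence interval from limma; colours mark the 4 classes, filled points passed an adjusted p under 0.05 and open points did not. Scd1 lies farthest right at 1.49 and Npc1 farthest left at -1.26, and the called sterol and fatty acid synthesis genes all lie to the right of 0.

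Promoter sequences of the genes were read to show what those that were higher and those that were not called share. RefSeq promoters on GRCm38.p6, 250 bases before to 50 after a gene's start, were matched for 29 of the 38 genes. Each motif was searched on both strands. Of these genes 5 had several promoters, and a gene was counted when any of its promoters held the motif. CCAAT, the site of the factor NF-Y, which is known to act beside SREBPs, was in 14 of 15 sterol synthesis genes with a promoter (93.3%), against 42.4% of the 10088 tested genes with a promoter. Among those with a promoter, 7 of 7 called sterol synthesis genes and 7 of 7 uncalled ones had it, so that its presence did not separate them. The called genes Fdps, Fdft1 and Sqle had no promoter to read. Dhcr7 held CCAAT only in its promoter at chr7:143829964-143830263. The sterol response element core TCACNCCAC was found in Hmgcs1 alone among the genes (1.44% of tested genes), and the shorter CACNCCAC, which it contains, in Hmgcs1, Acat2 and Insig1 (7.64% of tested genes). CACGTG, an E-box that SREBPs can also bind, was in 7 of the 29 (24.1%, against 11.4%), GGGCGG in 23 of the 29 (79.3%, against 65.3%), and the direct repeat that LXRs bind (DR4) in none (0 of 10088 tested genes). The 140 bases before the start are shown 5′ to 3′ on the gene's strand for 5 promoters of SREBP-controlled genes that were higher (Idi1, Lss, Cyp51, Insig1 and Fasn) and for Hmgcs1, Sc5d and Ebp, which were not called. They lie at chr13:119690211-119690350 (plus strand, Hmgcs1), chr13:8885466-8885605 (plus, Idi1), chr10:76531465-76531604 (plus, Lss), chr5:4104698-4104837 (minus, Cyp51), chr5:28071272-28071411 (plus, Insig1), chr11:120824548-120824687 (minus, Fasn), chr9:42264301-42264440 (minus, Sc5d) and chrX:8193513-8193652 (minus, Ebp). Capitals mark CCAAT, CACNCCAC with its TCACNCCAC form, and CACGTG, in either orientation.
Hmgcs1: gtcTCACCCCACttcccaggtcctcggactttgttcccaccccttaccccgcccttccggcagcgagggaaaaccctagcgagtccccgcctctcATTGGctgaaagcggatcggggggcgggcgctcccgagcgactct
Idi1: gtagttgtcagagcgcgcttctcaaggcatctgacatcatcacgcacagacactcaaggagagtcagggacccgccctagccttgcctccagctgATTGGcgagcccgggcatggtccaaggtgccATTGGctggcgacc
Lss: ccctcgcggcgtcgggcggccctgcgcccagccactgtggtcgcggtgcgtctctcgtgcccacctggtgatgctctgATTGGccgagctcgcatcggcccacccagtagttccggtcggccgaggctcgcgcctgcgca
Cyp51: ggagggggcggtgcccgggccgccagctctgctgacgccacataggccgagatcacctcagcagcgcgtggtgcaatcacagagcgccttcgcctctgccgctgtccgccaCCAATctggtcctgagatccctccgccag
Insig1: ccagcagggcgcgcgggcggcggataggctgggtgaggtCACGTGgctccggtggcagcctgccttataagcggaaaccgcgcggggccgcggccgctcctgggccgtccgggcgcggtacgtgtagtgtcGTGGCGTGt
Fasn: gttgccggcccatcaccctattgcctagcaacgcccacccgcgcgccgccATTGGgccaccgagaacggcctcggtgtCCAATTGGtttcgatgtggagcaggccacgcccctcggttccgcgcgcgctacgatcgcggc
Sc5d: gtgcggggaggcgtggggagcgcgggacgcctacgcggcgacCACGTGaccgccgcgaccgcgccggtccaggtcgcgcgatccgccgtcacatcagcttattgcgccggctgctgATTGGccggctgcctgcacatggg
Ebp: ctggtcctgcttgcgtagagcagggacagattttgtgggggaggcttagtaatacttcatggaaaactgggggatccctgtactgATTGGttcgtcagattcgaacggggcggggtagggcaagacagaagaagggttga
In these windows Fasn has 3 matches to CCAAT, 2 of them overlapping, Idi1 has 2, Hmgcs1, Lss, Cyp51, Sc5d and Ebp have 1 each and Insig1 has 0. A match is a description of letters and not a measured binding site. The DR4 was searched only as an exact repeat, which 4 of 27025 genes with a promoter carried and 0 of the 10088 tested. Repeats with other letters were not searched for, so the 0 matches cannot show that Abca1 or any other gene lacks an LXR site.

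Of the enzymes that lead from acetyl-CoA to farnesyl diphosphate, 3 of 6 were higher in clone. Fdps, which makes farnesyl diphosphate, the branch point to sterols and to prenylated proteins, gave signals of 3983, 2401 and 4152 on the clone arrays and 1178 and 1442 on the transgenic arrays. All clone arrays lay above both transgenic arrays (3512 ± 966, SD, n = 3, against 1310 ± 187, n = 2), with a difference of 1.37 (SE 0.22, adjusted p = 0.00135, limma). Pmvk, which phosphorylates mevalonate phosphate, gave 1066, 1016 and 1097 against 525 and 448. The clone arrays of Pmvk were close to each other and far from the transgenic ones, with a difference of 1.10 (SE 0.12, adjusted p = 0.000167).

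Idi1, the isomerase that makes dimethylallyl diphosphate, gave 2238, 1257 and 1948 in clone against 1056 and 1241, a difference of 0.61 (0.11 to 1.12, 95% confidence interval) with an adjusted p of 0.0497 at the edge of the threshold. Clone array 2 was hardly above the higher transgenic array. Its call was lost under 9 of 15 alternatives, among them without clone array 1 (0.44), clone array 3 (0.54), transgenic array 1 (0.50) or transgenic array 2 (0.73), although a further probe set of Idi1 differed by 1.51 (adjusted p = 0.00110 in a fit over all 22322 probe sets).

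The gene of the enzyme that makes HMG-CoA, Hmgcs1, gave 4692, 2966 and 4838 in clone against 2926 and 3200, and was not called (0.41, -0.04 to 0.86, adjusted p = 0.126). Clone array 2 lay between the transgenic arrays, so the groups overlapped. Mvk (1.02, -0.21 to 2.25) and Mvd (0.61, 0.04 to 1.18), a kinase and a decarboxylase of the mevalonate steps, were not called either, with adjusted p = 0.161 and 0.0791. In all 3 of these genes arrays 1 and 3 of the clone were high and array 2 was near the transgenic arrays; without clone array 2 Hmgcs1 (0.64, adjusted p = 0.000870) and Mvd (0.89, 0.000791) passed the test. Mvk differed by 1.62 there, but no call is read from it, since the arrays kept are the ones that brought it past the filter. The other probe set of Mvd was called with all arrays (0.90, adjusted p = 0.00636), at 838, 509 and 648 against 337 and 344. The other probe set of Mvk differed by 1.48 and, like the brightest, exceeded the filter level on clone arrays 1 and 3 alone.

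The 3 genes that lead from farnesyl diphosphate to lanosterol were all higher in clone. Fdft1, squalene synthase, gave 1316, 914 and 1398 against 484 and 630 (1.08, SE 0.20, adjusted p = 0.00245); without clone array 3 another of its probe sets is the brightest, with a difference of 0.70. Lss, which closes squalene epoxide to lanosterol, gave 1317, 1063 and 1240 against 473 and 586 (1.16, SE 0.14, adjusted p = 0.000302). Sqle, squalene epoxidase, gave 1728, 1283 and 1656 against 737 and 966 (0.86, SE 0.16, adjusted p = 0.00319). For each of them every clone array was above every transgenic array, and clone array 2 was the lowest of the clone.

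Between lanosterol and cholesterol, 4 of 8 genes were higher and 4 were not called. Cyp51, the lanosterol demethylase, gave 1040, 644 and 1042 against 467 and 482 (0.88, SE 0.21, adjusted p = 0.00895). Nsdhl, which works with Msmo1 to take off methyl groups from the sterol ring, gave 1769, 1458 and 1837 against 1309 and 1179 (0.43, SE 0.13, adjusted p = 0.0232). Msmo1 (0.69) and Dhcr7, the reductase that makes cholesterol from its direct precursor (0.66), were the other 2 higher genes. The groups did not overlap in any of these 4 genes, nor in 64.5% of all genes tested. Without transgenic array 1 none of the 4 was called (Cyp51 0.86, Msmo1 0.63, Nsdhl 0.50, Dhcr7 0.55). The calls of Nsdhl and Dhcr7 also ended without clone array 1 (0.39 and 0.59), clone array 3 (0.37 and 0.54) or transgenic array 2 (0.35 and 0.77).

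The uncalled genes of this stretch lay close to 0 by their brightest probe sets. Ebp, a sterol isomerase, gave 3195, 3069 and 3649 against 3168 and 3158, so that the groups overlapped (0.06, -0.17 to 0.29). The desaturase gene Sc5d (0.09, -0.17 to 0.35), the keto-reductase gene Hsd17b7 (-0.10, -0.38 to 0.17) and the reductase gene Tm7sf2 (-0.21, -0.56 to 0.14) had intervals that reach no higher than 0.35. A dimmer probe set of Hsd17b7, of a type that can match several transcripts, was higher (0.71, adjusted p = 0.00949), and others of that gene differed by 0.47 and 0.17 without a call. A dimmer probe set of Sc5d was lower (-0.51, adjusted p = 0.0473), and its dimmest differed by -1.09 without a call. The median difference was 0.26 over these 8 genes and 1.08 over the 3 before them. No median is given for the first 6, since Mvk among them passed the filter only through clone arrays. This split by step was made after the values were seen.

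**Figure D2:**
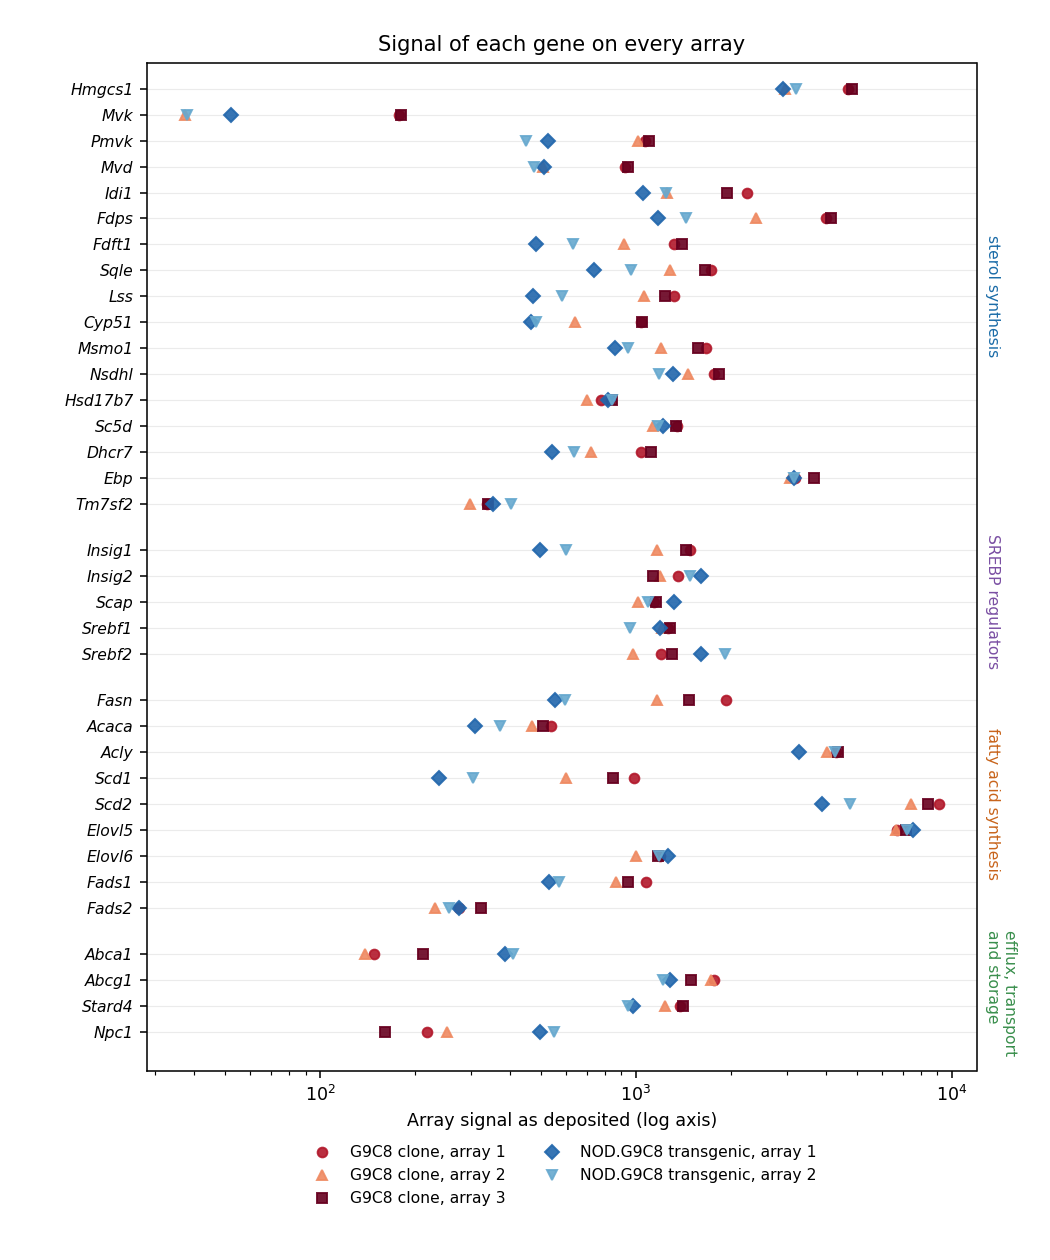
Array signal as deposited (x axis, log scale) of the 35 measured genes on each of the 5 arrays, grouped by class; red symbols are the 3 clone arrays and blue symbols the 2 transgenic arrays. Clone array 2 (light red triangles) is the lowest clone array in 32 of 35 genes, against 34.7% of all genes tested. For 25 genes (71.4%) the groups do not overlap, against 64.5% of all genes tested.

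The machinery that controls SREBPs did not move as a block. Insig1, the INSIG gene that is itself an SREBP target, gave 1487, 1162 and 1439 in clone against 496 and 602. Every clone array was above every transgenic array (1362 ± 175 against 549 ± 74.8, SD, n = 3 and 2), with a difference of 1.28 (SE 0.15, adjusted p = 0.000203, limma). Insig2, its paralogue, gave 1355, 1191 and 1135 against 1612 and 1483 and was lower (-0.33, SE 0.11, adjusted p = 0.0423). The call was lost or the sign turned under 9 of 15 alternatives, among them without clone array 2 (-0.31), clone array 3 (-0.28), transgenic array 1 (-0.27) or transgenic array 2 (-0.39), and the further probe sets of Insig2 differed by 0.13 and 0.33 without a call.

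Srebf2, which encodes SREBP2, the factor most tied to cholesterol synthesis, was lower in clone, at 1196, 976 and 1297 against 1601 and 1911. No clone array reached a transgenic array (-0.60, SE 0.14, adjusted p = 0.00952), and the call was lost without transgenic array 2 (-0.47, adjusted p = 0.0912). A second, dimmer Srebf2 probe set differed by -0.24 and was not called (adjusted p = 0.127). Srebf1, which encodes the SREBP1 forms that act on fatty acid genes, gave 1260, 1206 and 1284 against 1190 and 960 and was not called (0.22, -0.05 to 0.50). Scap, the escort, gave 1144, 1018 and 1160 against 1323 and 1089 and overlapped (-0.12, -0.40 to 0.17). These are transcript signals, and the arrays do not measure the cleavage that sets SREBP activity.

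Fatty acid synthesis genes divided into 5 that were higher and 4 that differed little. Scd1, a stearoyl-CoA desaturase that makes monounsaturated fatty acids, gave 983, 600 and 849 in clone against 237 and 305. Its groups were far apart, with 811 ± 194 (SD, n = 3) against 271 ± 47.9 (n = 2) and the largest difference of the 35 genes (1.49, SE 0.21, adjusted p = 0.000703). Fasn, fatty acid synthase, gave 1925, 1169 and 1474 against 553 and 597 (1.35, SE 0.19, adjusted p = 0.000639). Scd2, a second desaturase of this family, gave 9091, 7449 and 8405 against 3886 and 4756 (0.94, SE 0.12, adjusted p = 0.000352). In all 3 genes the lowest clone array was above the highest transgenic array by a wide margin.

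Fads1, a front-end desaturase of polyunsaturated fatty acids, gave 1077, 867 and 946 against 531 and 571 (0.78, SE 0.13, adjusted p = 0.00156). Acaca, the acetyl-CoA carboxylase that commits carbon to fatty acids, gave 538, 470 and 508 against 310 and 371 (0.55, SE 0.15, adjusted p = 0.0160). Again no arrays of the groups overlapped, but the Acaca difference was the smallest of the 5 and was not called without transgenic array 1 (0.42, adjusted p = 0.134).

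Acly, which makes cytosolic acetyl-CoA from citrate, gave 4293, 4022 and 4353 against 3293 and 4263 and was not called (0.17, -0.10 to 0.44). Transgenic array 2 lay among the clone arrays. A dimmer Acly probe set was called higher (0.46). The elongase gene Elovl5 gave 6684, 6640 and 7169 against 7541 and 7210 (-0.11, -0.30 to 0.08). Elovl6, which extends palmitate, gave 1196, 1004 and 1178 against 1259 and 1182 (-0.12, -0.38 to 0.15). Fads2, the partner desaturase of Fads1, gave 275, 230 and 322 against 276 and 256 (0.04, -0.39 to 0.46). The intervals of both elongases and of Fads2 included 0, unlike those of the 3 other desaturase genes and of the synthase gene.

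Sterol export and transport went both ways. Npc1, which moves cholesterol out of lysosomes, gave 218, 253 and 160 in clone against 498 and 549. The clone arrays lay far below the transgenic arrays (210 ± 46.6 against 523 ± 36.3, SD, n = 3 and 2), with a difference of -1.26 (SE 0.20, adjusted p = 0.00133, limma). Abca1, an LXR target that exports cholesterol to apolipoproteins, gave 149, 139 and 212 against 384 and 408 (-1.18, SE 0.21, adjusted p = 0.00219). Abcg1, also an LXR target and an exporter, went the other way at 1762, 1725 and 1492 against 1284 and 1214 (0.40, SE 0.11, adjusted p = 0.0174). Stard4, a soluble sterol carrier and an SREBP target, gave 1379, 1233 and 1404 against 977 and 941 (0.47, SE 0.11, adjusted p = 0.00739). The groups did not overlap in any of these 4 genes, nor in 64.5% of all genes tested. Without transgenic array 2 neither Abcg1 (0.36) nor Stard4 (0.44) passed the test, and Abcg1 did not without clone array 1 (0.36) or transgenic array 1 (0.44) either, whereas Npc1 and Abca1 were called under all 15 alternatives.

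The clone arrays were not alike. Array 2 was the lowest clone array in 17 of 17 sterol synthesis genes and 9 of 9 fatty acid synthesis genes, against 34.7% of all genes tested. It lay below the mean of the other two clone arrays by a median difference of -0.42 in sterol synthesis and -0.23 in fatty acid synthesis, beside 0.01 over all genes tested. In efflux, transport and storage the median was -0.04. Cell division genes such as Mki67 and Cdc20 moved with it: array 2 was the lowest clone array in 18 of 18 of them, by a median of -0.74. Their part in the lipid gene result was not tested.

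On array 2 the cell division genes averaged 0.07 above the transgenic mean, while sterol synthesis genes averaged 0.28 and fatty acid synthesis genes 0.38 above it. On arrays 1 and 3 the same means were 0.81 and 0.75 for cell division, 0.80 and 0.81 for sterol synthesis and 0.69 and 0.62 for fatty acid synthesis. The mean of the efflux, transport and storage genes was even across the clone arrays, at -0.37, -0.39 and -0.41. Single genes were not: array 2 deviated from the mean of the other clone arrays by -0.31 in Abca1 and by 0.40 in Npc1. Leaving Mvk out of the sterol synthesis genes, since only clone arrays brought it past the filter, the clone array means were 0.74, 0.31 and 0.76. Without array 2, 12 of these 16 other sterol synthesis genes were higher in place of 10, and 5 of 9 fatty acid synthesis genes.

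**Figure D3:**
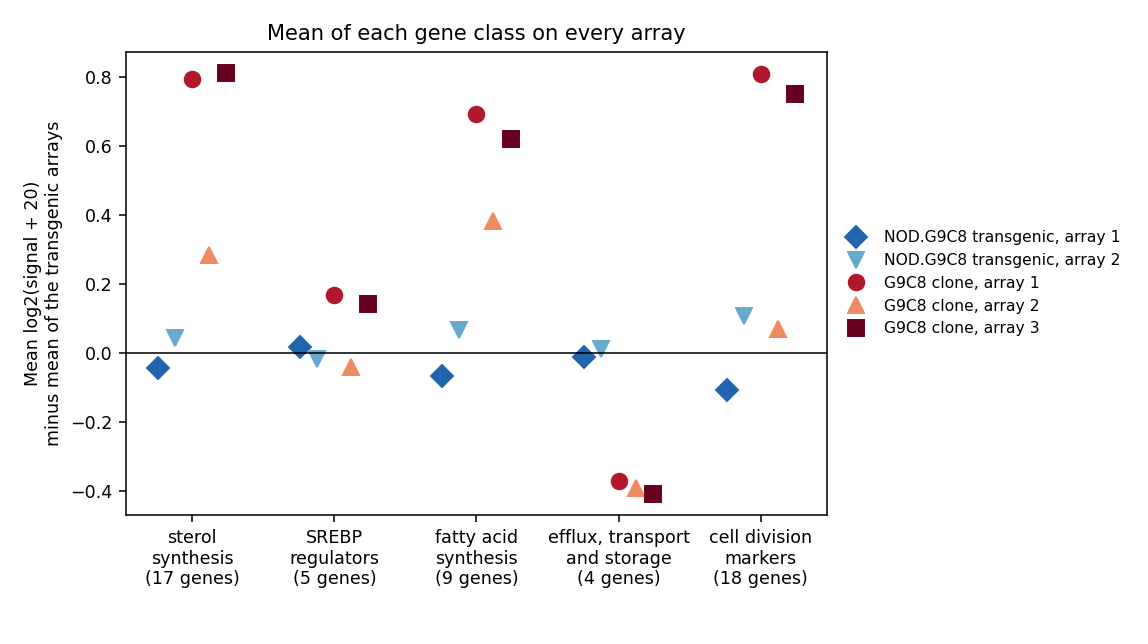
Mean log2(signal + 20) of each class on every array, minus the mean of the 2 transgenic arrays (y axis), for the 4 classes and for 18 cell division markers; each point is 1 array. Clone array 2 lies at 0.28 for sterol synthesis, against 0.80 and 0.81 on the other clone arrays, and at 0.07 for cell division markers.

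Leaving out either transgenic array also ended calls. Without transgenic array 1, Cyp51, Msmo1, Dhcr7, Nsdhl, Idi1, Acaca and Abcg1 were no longer called higher, and Insig2 no longer lower. Without transgenic array 2, Dhcr7, Nsdhl, Idi1, Abcg1 and Stard4 were no longer called higher, and Insig2 and Srebf2 no longer lower. The groups then stand at 3 arrays against 1, whose spread is assumed to be like that of the clone. Under all 15 alternatives 9 genes were called in the same direction, namely Pmvk, Fdps, Sqle, Insig1, Fasn, Scd1, Scd2, Abca1 and Npc1.

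Several genes were measured by more than 1 probe set, and these did not always run together. Of 24 genes with several probe sets above the filter, 2 had probe sets called in opposite directions. Fdft1 had 2 probe sets that were higher (1.08 and 0.78) and 2 dimmer ones that were lower (-1.43 and -1.72). The dimmer of these gave 140, 52.0 and 94.1 in clone against 370 and 313. Fads1 had a brighter probe set that was higher (0.78) and a dimmer one that was lower (-0.48, adjusted p = 0.0185). The table does not say which transcript forms these probe sets read.

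For Hmgcs1 the 3 brightest of 5 probe sets differed by 0.41, 0.49 and 0.49 without a call, another by -0.19, and the dimmest by 2.41 (821, 724 and 717 in clone against 125 on both transgenic arrays; adjusted p = 6.48e-06). In that probe set clone array 2 stood with the other clone arrays. Both Scd1 probe sets differed alike (1.49 and 1.62), and of 3 Scd2 probe sets 2 were called (0.94 and 1.14) and 1 was not (0.27). The brightest Lss probe set is of a type that can match several transcripts, and without such probe sets Lss differed by 0.83 (adjusted p = 0.0643). With the mean over all probe sets of a gene in place of the brightest, Fdft1 (-0.32), Fads1 (0.15), Acaca (0.34), Abcg1 (0.33) and Stard4 (0.30) were not called, Insig2 (0.04) was not either, and Sc5d was called lower (-0.51). Hmgcs1 (0.72, adjusted p = 0.00766) and Mvd (0.75, 0.0206) were called higher with that mean, and 11 of 17 sterol synthesis genes were higher in place of 10.

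**Figure D4:**
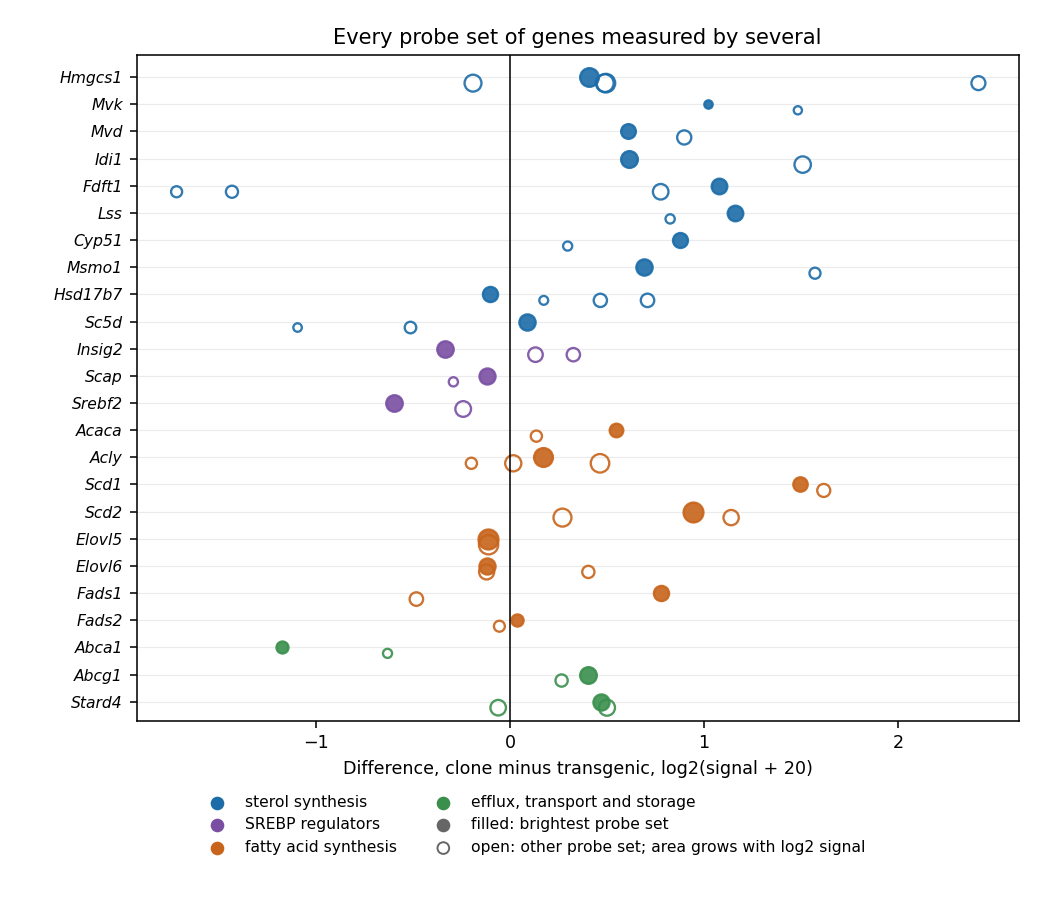
Difference, clone minus transgenic on the log2(signal + 20) scale (x axis), of every probe set above the filter for the 24 genes with more than 1; filled circles are the brightest probe set, open circles the others, and area grows with log2 signal. Fdft1 spans from -1.72 to 1.08 and Hmgcs1 from -0.19 to 2.41, while the probe sets of Scd1 lie together.

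Further genes of these pathways, listed by function, showed no common direction: 9 of 42 tested were higher (21.4%), 10 lower (23.8%) and 23 not called, with a median of 0.04. These shares are close to those over all genes tested, 22.0% higher and 21.7% lower. In fatty acid supply, elongation and activation 6 of 16 were higher (37.5%) and 3 lower (18.8%). Elovl7, an elongase of long saturated chains, gave 1155, 1631 and 1267 in clone against 184 and 205 (2.66, adjusted p = 7.39e-06), and Acsl4, which activates arachidonate-like fatty acids, differed by 1.67 (adjusted p = 2.28e-05). Hacd2, a dehydratase of the elongation cycle, was higher as well (0.99). The lower genes were Acss2, which makes acetyl-CoA from acetate (-1.11), the mitochondrial synthase gene Oxsm (-0.88) and Mid1ip1, a partner of acetyl-CoA carboxylase (-0.63). The Oxsm call ended without transgenic array 2 (-0.80, adjusted p = 0.0741), and without probe sets that can match several transcripts Elovl7 differed by 1.36. With the mean over probe sets Oxsm was not called (-0.47).

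The counts of the next 3 lists stand beside 22.0% higher and 21.7% lower over all genes tested. In the isoprenoid branch 3 of 10 were higher and 0 lower: Dhdds (1.23) and Nus1 (0.48), subunits of the enzyme that makes the dolichol backbone, and Coq2 of ubiquinone synthesis (0.59). Of 5 other SREBP processing genes, 3 were lower, namely Erlin1 (-0.76) and Erlin2 (-0.45), which act in the degradation of INSIG and other membrane proteins, and the protease gene Mbtps1 (-0.36). Dhdds differed by 0.52 without clone array 2 or clone array 3, where another probe set is the brightest, and was then not called without array 3. Leaving out any array but clone array 2 ended the call of Mbtps1 (-0.38 to -0.28), and any but clone array 1 that of Erlin2 (-0.50 to -0.41). Mbtps1 (-0.10) and Nus1 (0.21) were not called with the mean over probe sets. Of 11 further genes of sterol transport and LXR, 0 were higher and 4 lower. Mylip, an LXR target that degrades lipoprotein receptors, was at 168, 58.2 and 228 in clone against 1384 and 1608 (-3.30, SE 0.41, adjusted p = 0.000349). Lipa, the lysosomal acid lipase, was lower by a difference of -0.88, and the scavenger receptor gene Scarb1 by -0.60 (not called without transgenic array 1, -0.65, or transgenic array 2, -0.54, or with the mean over probe sets, -0.13); Nr1h3, encoding an LXR, was not called (-0.05).

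Because the transgenic cultures began as whole spleen, markers of other cells were read beside the genes. T cell markers were bright on all arrays, with a summed signal of 46974 to 54052 over 6 genes in clone and 66119 to 74143 in transgenic cells. Of these 6, 4 were lower in clone (Cd3d -0.49, Cd247 -1.37, Cd8a -0.68 and Cd8b1 -0.65). Over all genes tested 21.7% were called lower, which also stands beside the counts of the marker lists below. Cd3e (0.19) and Cd3g (-0.06) were not called. Summed signals of 8 myeloid markers were 1529 to 1929 in clone and 5302 to 7830 in transgenic cells, and 4 of the 6 tested were lower in clone. The other two, Cd68 and Fcgr1, lay above on every clone array without a call (0.50 and 0.34). Most of the transgenic sum came from Lyz2, a myeloid lysozyme gene, which was at 237 to 327 in clone and at 3497 and 5549 on the transgenic arrays. Summed B cell markers (5 genes) were 565 to 888 against 1291 to 1545, and dendritic cell markers (5 genes) 544 to 621 against 906 to 1416. Of 4 B cell markers tested only Cd79b was lower (31.5, 2.7 and 46 against 655 and 594), while Cd22 (0.16) and Ms4a1 (-0.24) overlapped and Blk (-0.69) was not called. That share, 25%, is near the one over all genes tested. Of 4 dendritic cell markers tested Itgax (113, 129 and 103 against 368 and 800) and Zbtb46 (-0.74) were lower, and Siglech (0.34) and Flt3 (-0.0041) were not called. No marker of these lists was at 0 on any array. Without detection calls, a low signal such as Cd79b at 2.7 on clone array 2 does not show that a transcript was present.

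Myeloid cells also express Abca1, Npc1 and Lipa. Between the transgenic arrays Lyz2 differed by more than 1.5-fold, while Abca1 gave 384 and 408 and Npc1 498 and 549; the part of other cells in the lower Abca1, Npc1, Lipa and Mylip signals was not tested. In such bulk cultures fewer cells of a type and less RNA per cell cannot be told apart.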

How the data were processed

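Total RNA (8 µg labelled as cRNA, per the labels' protocols) was measured on 1-colour Affymetrix arrays. Deposited values are linear array intensity, 1 signal per probe set, made with GCOS per the submitters' processing notes; no source used here describes background or summarization. The 2% trimmed mean was 500.0 on every array, so the authors' deposited scaling was kept; median signals were 132.3 to 141.9. No detection calls come with the table. The number of arrays limits the precision (median SE of a difference 0.16).

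Of 45101 probe sets, 34945 carried 1 gene symbol in the platform annotation. Groups came from sample titles, 3 vials of 1 clone and 2 mice, so p-values for the clone cover spread between vials. Values were log2(signal + 20), which understates differences of dim genes. Probe sets at or above the 40th percentile of mean signal were kept, the brightest per gene, and fitted with limma 3.58.1 (R 4.3.3; lmFit, eBayes with trend, two-sided). Called means an adjusted p under 0.05. On simulated data for this comparison (12446 genes, 20 runs, 200 genes changed in each) the fit recovered 41.8% of 1.5-fold, 78.0% of 2-fold and 97.3% of 4-fold changes, and 8.85% of its calls were unchanged genes. Far fewer genes changed there than the 43.8% called in the data. The adjusted p depends on that share, so these rates need not hold for the data.

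The genes and lists were chosen with earlier results of these data known. Genes were named by rule: per class up to 6 called genes of largest difference and up to 4 of highest signal with every array, and of the further pathway lists up to 3 called genes in each direction. Alternatives were quantile normalization, pseudocounts of 1 and 50, no filter or the 60th percentile, the mean over probe sets, leaving out cross-hybridizing types, eBayes without trend or robust, a replicate block and each array left out. Marker lists not mentioned above (CD4 T cell, erythroid, stroma and endothelium) were read too: summed signals were 169 to 204, 55.4 to 119 and 678 to 740 in clone and 185 to 372, 139 to 143 and 1420 to 1427 in transgenic cells. Promoter sequences are from RefSeq (GRCm38.p6). Plots used matplotlib 3.10.9 (Python 3.11.15).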

Additional observations from a re-analysis of the deposited data

How the results depend on the processing

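Directions of the class results held under most alternatives; small classes moved by 1 or 2 genes. Genes higher of the 35 numbered 11 to 21 with an array left out, lower 2 to 4; sterol synthesis genes higher 5 to 13 (the highest count with Mvk among them); efflux, transport and storage genes higher 0 to 2; SREBP regulators lower 0 to 2; further pathway genes lower 5 to 10; all genes lower 1697 to 2795. SREBP regulators called lower were 1 in place of 2 under quantile normalization, without a filter, with the mean over probe sets, with eBayes without trend and with the replicate block. Quantile normalization added 1 lower fatty acid synthesis gene (Elovl5). With the mean over probe sets 1 sterol synthesis gene was lower (Sc5d, -0.51), 3 fatty acid synthesis genes were higher in place of 5, and 0 genes of efflux, transport and storage were higher; there Fdft1 (-0.32), Hsd17b7 (0.31), Insig2 (0.042), Elovl6 (0.055) and Fads2 (-0.0091) changed sign too. Ebp turned to -0.0058 under quantile normalization and -0.014 with the replicate block, and Fads2 to -0.075 with that block. With an array left out, Ebp ranged from -0.014 to 0.11, Scap from -0.25 to 0.021, Acly from -0.014 to 0.36 and Fads2 from -0.075 to 0.15, none of them called. Of 22 called genes, 9 kept call and direction under all 15 alternatives.

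The titles number vials and mice alike, but nothing ties a vial to a mouse. The block fit rests on 4 arrays, since clone array 3 has no partner. With the replicate block 16 genes were higher and 3 lower, and Idi1, Nsdhl and Insig2 lost their calls. Deviations of same-numbered arrays correlated at -0.03 and -0.08. With 2 transgenic arrays their deviations mirror each other, so these values cannot show whether the numbers pair the arrays.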
